A study of Mus musculus with 8 samples.

Results

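The annexins Anxa1, Anxa2, Anxa3, Anxa4, Anxa5, Anxa6, Anxa7 and Anxa11, with the Anxa2 partner S100a10, were followed in mouse germinal centre B cells and resting B cells. All probe sets annotated to one of these 9 symbols were taken, which gave 13 of the 12488 probe sets on the array and 9 of the 8949 genes named there. The family was chosen by the measured rise of Anxa2 in germinal centre over resting cells, so member values and counts against resting cells are a description, from which nothing is read. The comparisons among the 3 germinal centre groups are tested.

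Annexins are cytosolic proteins that bind acidic phospholipids of membranes when calcium is present, through a conserved core of repeats, and they differ mainly in their amino-terminal tails. The tail of Anxa2 binds a dimer of S100a10, an S100 protein that does not need calcium for its binding, and the complex links membranes to cortical actin and serves as a plasminogen receptor at the cell surface. Anxa5 binds phosphatidylserine and is used as a stain for apoptotic cells, which are frequent in germinal centres.

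RNA was measured on 8 Affymetrix arrays, 2 for each of 4 groups, and every cell pool came from QM x B6 F1 mice, in which the QM parent carries a rearranged heavy-chain gene for antibody against the hapten NP. The TI day 4 group held GL7+ B220+ cells taken 4 days after 30 µg of NP-Ficoll, a T-independent antigen given intraperitoneally, from pools of 4 and 10 mice. The TD day 10 group held GL7+ B220+ cells taken 10 days after 50 µg of alum-precipitated NP-CGG, a T-dependent antigen, with heat-killed B. pertussis, from pools of 6 and 6 unprimed mice. The TD day 4 group held GL7+ B220+ cells from pools of 6 and 9 mice primed with 50 µg of alum-precipitated CGG carrier and B. pertussis, challenged after 5 weeks with 50 µg of soluble NP-CGG and killed 4 days later. The resting group held GL7- B220+ B cells of unimmunised mice, from pools of 6 and 9. Each array therefore stands for 1 pool, and antigen, adjuvant, priming and day differ together between the groups, so their parts cannot be told apart.

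The deposited intensities had medians of 77 to 89 units per array, and 30.1% of all values were at or below 0. A value under 81, the median of all values, was raised to that floor before log2 was taken, and where the dimmer group was at that floor its fold is given as at least that size. The summed intensity of 7 germinal centre markers, with values under 0 counted as 0, was 3614 to 3760 units in TI day 4 arrays, 5978 to 6048 in TD day 10 arrays and 5120 to 5635 in TD day 4 arrays, against 2866 to 3097 in resting arrays. Of these markers, Bcl6, the repressor that defines germinal centre B cells, averaged 1234.5 units over the germinal centre arrays and 445 units in resting arrays. Not all of the 7 moved that way: Lmo2 averaged 612 units over the germinal centre arrays and 889 in resting arrays (limma adjusted p = 0.0421, lower), and Gcsam averaged 143.5 units in TI day 4 arrays and 127.5 in resting arrays (limma adjusted p = 0.772). Fas, also a germinal centre marker, stayed under the floor on every array. The 7 B cell markers summed to 21020 to 25116 units on the germinal centre arrays and 30827 to 33786 units on the resting arrays. Of the 7, Cd79a, Cd79b and Cd22 passed limma as lower in the germinal centre mean, 3 in all, beside 5.5% of all probe sets tested. Ms4a1 went the other way, averaging 6699.5 units over the germinal centre arrays and 6183 in resting arrays. Arrays overlapped for Ms4a1, Blk and Ptprc. The 3'/5' Gapdh ratio, a sign of RNA integrity, was 1.46 ± 0.308 in TI day 4 arrays, 0.866 ± 0.0426 in TD day 10 arrays, 0.968 ± 0.0192 in TD day 4 arrays and 1.23 ± 0.510 in resting arrays (SD, n = 2 each).

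Of the 13 probe sets, 6 exceeded the floor on at least 2 arrays and were tested among 7253 probe sets, and 7 were not. The 6 covered Anxa2, Anxa5, Anxa6, S100a10 with 2 probe sets, and a probe set shared by Anxa11 and its transcribed pseudogenes Gm2260 and Gm2274. A probe set that exceeded the floor only in the groups where it was bright, as Anxa2 did in the germinal centre groups, had to differ between groups, so counts over the 6 describe these probe sets and not the family. In bulk RNA, fewer cells of a type and less RNA per cell cannot be told apart.

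The start regions of member genes are shown as a description, and each runs from 250 bases before to 50 bases after a RefSeq start in GRCm38.p6. RefSeq entries were matched for 6 of the 9 genes, with 8 windows in all. Those below belong to Anxa2 (chr9:69453433-69453732, plus strand), the member with the highest germinal centre signal relative to resting cells; Anxa5 (chr3:36475838-36476137, minus strand), another member with a higher germinal centre mean; and Anxa1 (chr19:20390622-20390921, minus strand), which stayed dim. Capitals mark every match, on either strand, to TATAAA (the TATA box), TGANTCA (the letters bound by AP-1 proteins), GGGCGG (Sp1-type factors), CCAAT (NF-Y) or TTCNNNGAA (STAT proteins).
Anxa2: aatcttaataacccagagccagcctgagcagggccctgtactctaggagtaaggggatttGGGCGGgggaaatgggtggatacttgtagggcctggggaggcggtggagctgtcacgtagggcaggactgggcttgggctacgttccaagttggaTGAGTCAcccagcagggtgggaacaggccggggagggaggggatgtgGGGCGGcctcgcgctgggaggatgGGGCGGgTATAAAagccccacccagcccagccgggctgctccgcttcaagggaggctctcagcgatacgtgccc
Anxa5: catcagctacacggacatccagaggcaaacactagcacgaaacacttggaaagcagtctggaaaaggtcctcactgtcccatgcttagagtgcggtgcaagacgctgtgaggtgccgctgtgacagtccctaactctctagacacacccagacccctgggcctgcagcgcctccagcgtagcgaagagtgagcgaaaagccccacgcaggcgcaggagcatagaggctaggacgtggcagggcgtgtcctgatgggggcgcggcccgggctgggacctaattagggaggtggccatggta
Anxa1: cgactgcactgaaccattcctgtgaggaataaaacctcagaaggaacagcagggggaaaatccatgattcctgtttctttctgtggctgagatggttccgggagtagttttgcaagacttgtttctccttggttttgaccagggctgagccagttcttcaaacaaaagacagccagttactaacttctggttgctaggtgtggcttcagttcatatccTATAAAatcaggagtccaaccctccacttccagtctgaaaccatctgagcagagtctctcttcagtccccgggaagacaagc

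The Anxa2 window held 1 TATAAA beginning at position -17 from the start, 1 TGANTCA at -95 and 3 GGGCGG at -190, -48 and -24. None of these matches overlapped another. Over all 32841 promoter windows of the same length, 13.6% held TATAAA, 7.81% held TGANTCA and 35.7% held GGGCGG. Among the 8 member windows TGANTCA was present in 1, TATAAA in 2 and GGGCGG in 5. The 2 Anxa7 windows overlap and share 1 GGGCGG match, and by gene GGGCGG was present in 4 of 6. The Anxa1 window held 1 TATAAA at -32 and none of the other letters. The Anxa5 window held none of the 5, and CCAAT, found in 37.4% of all windows, and TTCNNNGAA, found in 8.3%, were in none of the 8. The motifs were chosen after the windows had been read, and a match is a description of these letters only.

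Anxa2, on chromosome 9, was bright in germinal centre cells and at background in resting cells. Its intensity was 1087 and 1144 units in TI day 4 arrays, 1886 and 2072 in TD day 10 arrays, 1903 and 1555 in TD day 4 arrays, and 44 and -362 in resting arrays. All 6 germinal centre arrays stood above both resting arrays, and both resting values were under the floor. The means were 1116 ± 40.3 units in TI day 4, 1979 ± 132 in TD day 10, 1729 ± 246 in TD day 4 cells and -159 ± 287 in resting cells (SD, n = 2 each). Relative to resting cells at the floor, Anxa2 was at least 13.8-fold higher in TI day 4, at least 24.4-fold higher in TD day 10 and at least 21.2-fold higher in TD day 4 cells.

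Among germinal centre groups, Anxa2 was lowest after the T-independent antigen. The 2 TI day 4 arrays lay below all 4 TD arrays, and the TD day 10 and TD day 4 arrays overlapped. The log2 difference was -0.83 for TI day 4 minus TD day 10 (SE 0.17, 95% interval -1.23 to -0.42) and -0.63 for TI day 4 minus TD day 4 (SE 0.17, interval -1.03 to -0.22). Neither passed limma's test over all probe sets, with adjusted p of 0.0682 and 0.157, and the first passed under 3 of 20 alternatives (adjusted p of 0.0428 to 0.335 over all of them). TD day 10 minus TD day 4 was 0.20 (interval -0.21 to 0.61, limma adjusted p = 0.964). A further comparison, chosen after these values were seen, set TI day 4 against the mean of both TD groups. Anxa2 then averaged 1116 units in TI day 4 cells and 1854 units in TD cells, a log2 difference of -0.73 (SE 0.14, interval -1.08 to -0.37), or 1.65-fold lower, with a limma adjusted p of 0.0545.

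S100a10, on chromosome 3, which encodes the light chain of the Anxa2 complex, was measured by 2 probe sets that disagreed, told apart below by their suffixes, _at and _r_at (probes picked after some selection rules were dropped). The _at set gave 421 and 609 units in TI day 4 arrays, 140 and 219 in TD day 10 arrays, 266 and 533 in TD day 4 arrays, and 1682 and 1951 in resting arrays. By this probe set all 6 germinal centre arrays were below both resting arrays, opposite to Anxa2, and the TD day 10 arrays were the lowest of the 8. Its means were 515 ± 133 units in TI day 4, 180 ± 55.9 in TD day 10, 400 ± 189 in TD day 4 cells and 1817 ± 190 in resting cells (SD, n = 2 each). Relative to resting cells it was 3.58-fold lower in TI day 4, 10.3-fold lower in TD day 10 and 4.81-fold lower in TD day 4 cells.

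The S100a10 _r_at set gave 692 and 402 units in TI day 4 arrays, 562 and 304 in TD day 10 arrays, 412 and 507 in TD day 4 arrays, and 644 and 498 in resting arrays. Here all 4 groups overlapped their neighbours in the order of means. The germinal centre mean minus resting was -2.49 on the log2 scale by the _at set (SE 0.33) and -0.29 by the _r_at set (SE 0.32). Which probe set follows the S100a10 transcript was not tested.

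Among germinal centre groups, the S100a10 _at set was higher in both TI day 4 arrays than in both TD day 10 arrays. The log2 difference was 1.53 (SE 0.40, 95% interval 0.56 to 2.50), and it did not pass limma's test (adjusted p = 0.124). TI day 4 minus TD day 4 was 0.43 (interval -0.54 to 1.40, limma adjusted p = 0.746), with overlapping arrays. TD day 10 lay below TD day 4 without overlap, by -1.10 (interval -2.08 to -0.13, limma adjusted p = 0.877). For the _r_at set the 3 differences among germinal centre groups were 0.35, 0.21 and -0.14 for TI day 4 minus TD day 10, TI day 4 minus TD day 4 and TD day 10 minus TD day 4, and in each the arrays overlapped.

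Anxa6, on chromosome 11, an annexin with a doubled core that binds membranes of the endosomal system, had the closest replicates. Its intensity was 832 and 839 units in TI day 4 arrays, 581 and 619 in TD day 10 arrays, 558 and 658 in TD day 4 arrays, and 1238 and 1255 in resting arrays. The resting arrays were above all others, TI day 4 came next, and the TD day 4 and TD day 10 arrays overlapped. Relative to resting cells the signal was 1.49-fold lower in TI day 4, 2.08-fold lower in TD day 10 and 2.06-fold lower in TD day 4 cells.

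Among germinal centre groups, Anxa6 was higher in TI day 4 than in TD day 10 by 0.48 on the log2 scale (SE 0.16, 95% interval 0.10 to 0.86) and than in TD day 4 by 0.46 (SE 0.16, interval 0.08 to 0.84). Neither passed limma's test over all probe sets, with adjusted p of 0.190 and 0.254. TD day 10 minus TD day 4 was -0.01 (interval -0.39 to 0.36).

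Anxa5, on chromosome 3, the phosphatidylserine-binding annexin, varied widely between replicates. It gave 557 and 749 units in TI day 4 arrays, 1036 and 479 in TD day 10 arrays, 1127 and 995 in TD day 4 arrays, and 200 and 498 in resting arrays. Both TI day 4 and both TD day 4 arrays exceeded the resting arrays, whereas 1 TD day 10 array, at 479 units, lay between the resting values. Its means were 653 ± 136 units in TI day 4, 758 ± 394 in TD day 10, 1061 ± 93.3 in TD day 4 cells and 349 ± 211 in resting cells (SD, n = 2 each). No difference among germinal centre groups passed limma's test. The log2 difference for TI day 4 minus TD day 4 was -0.71 (95% interval -1.99 to 0.56), for TI day 4 minus TD day 10 it was -0.13 (interval -1.40 to 1.15) and for TD day 10 minus TD day 4 it was -0.59 (interval -1.86 to 0.69).

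The probe set shared by Anxa11, an annexin of chromosome 14 that tethers RNA granules to lysosomes, and its pseudogenes was nearly level. It read 671 and 765 units in TI day 4 arrays, 530 and 640 in TD day 10 arrays, 713 and 625 in TD day 4 arrays, and 549 and 650 in resting arrays. Its groups overlapped each neighbour in the order of means, whereas both TI day 4 arrays lay above both TD day 10 and both resting arrays. The log2 differences were 0.10 for TI day 4 minus TD day 4 (95% interval -0.36 to 0.56), 0.30 for TI day 4 minus TD day 10 (interval -0.16 to 0.76) and -0.20 for TD day 10 minus TD day 4 (interval -0.66 to 0.26). Signal of Anxa11 and of its copies cannot be told apart here.

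**Figure D1:**
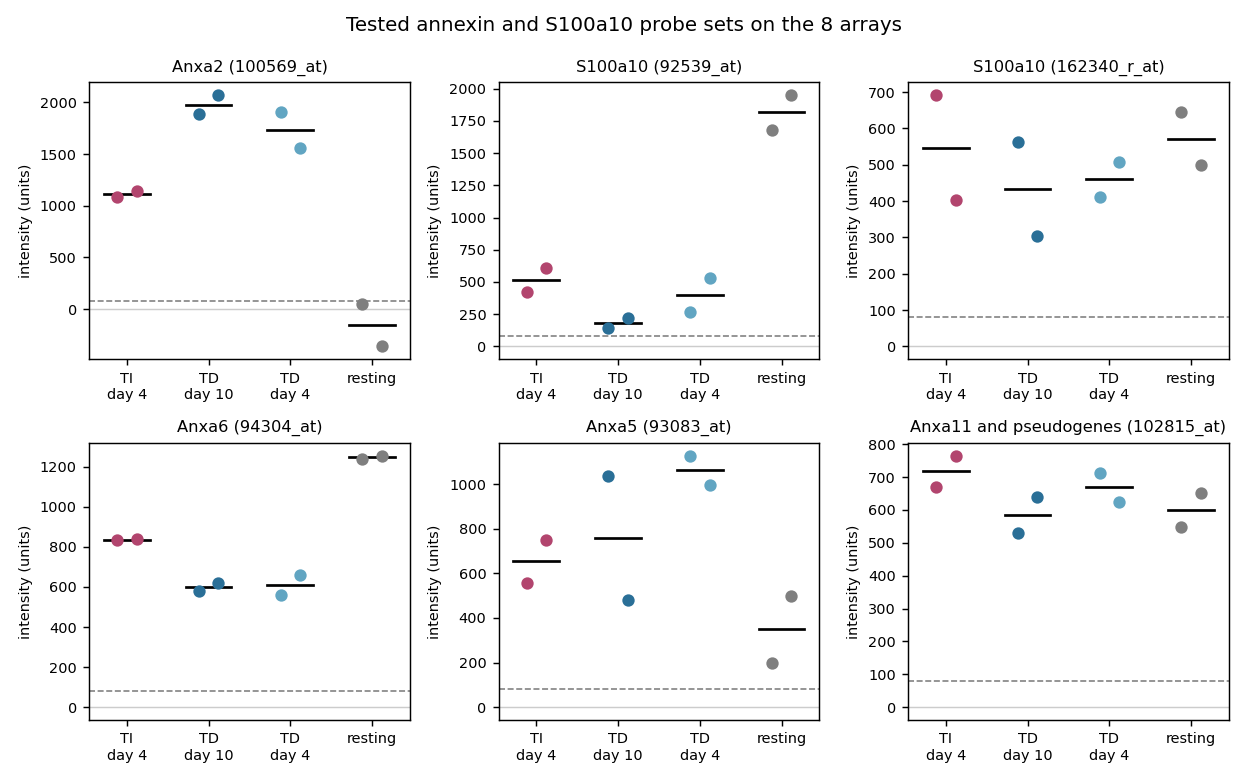
Intensity in units as deposited (y axis) on each array for the 6 tested probe sets, by group (x axis), with a bar at each group mean of 2 arrays and a dashed line at the floor of 81 units. Anxa2 is high in the 3 germinal centre groups and under the floor in resting cells, whereas S100a10 (_at) and Anxa6 are highest in resting cells.

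The remaining 4 annexins were dim on this array. Anxa1, on chromosome 19, the target of glucocorticoid induction and an anti-inflammatory ligand, had 3 probe sets with values from -100 to 102 units, and only resting replicate 2 of 1 set, at 102 units, exceeded the floor. That probe set read -7 and -7 units in TI day 4, -11 and -39 in TD day 10 and -62 and -47 in TD day 4 arrays, against 48 and 102 in resting arrays. The other Anxa1 probe sets also had their highest values in resting arrays, all under the floor, and no fold is given.

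Anxa3, on chromosome 5 and abundant in neutrophils, stayed between -82 and -24 units on all 8 arrays. Anxa4, on chromosome 6 and typical of epithelia, stayed between -2 and 52 units. Anxa7, on chromosome 14, a fusion-promoting annexin, read at most 93 units in 1 of its 2 probe sets, on TD day 10 replicate 2, and at most 66 units in the other. Signals under the floor show that the transcripts were not measured above background by these probe sets, not that they were absent.

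**Figure D2:**
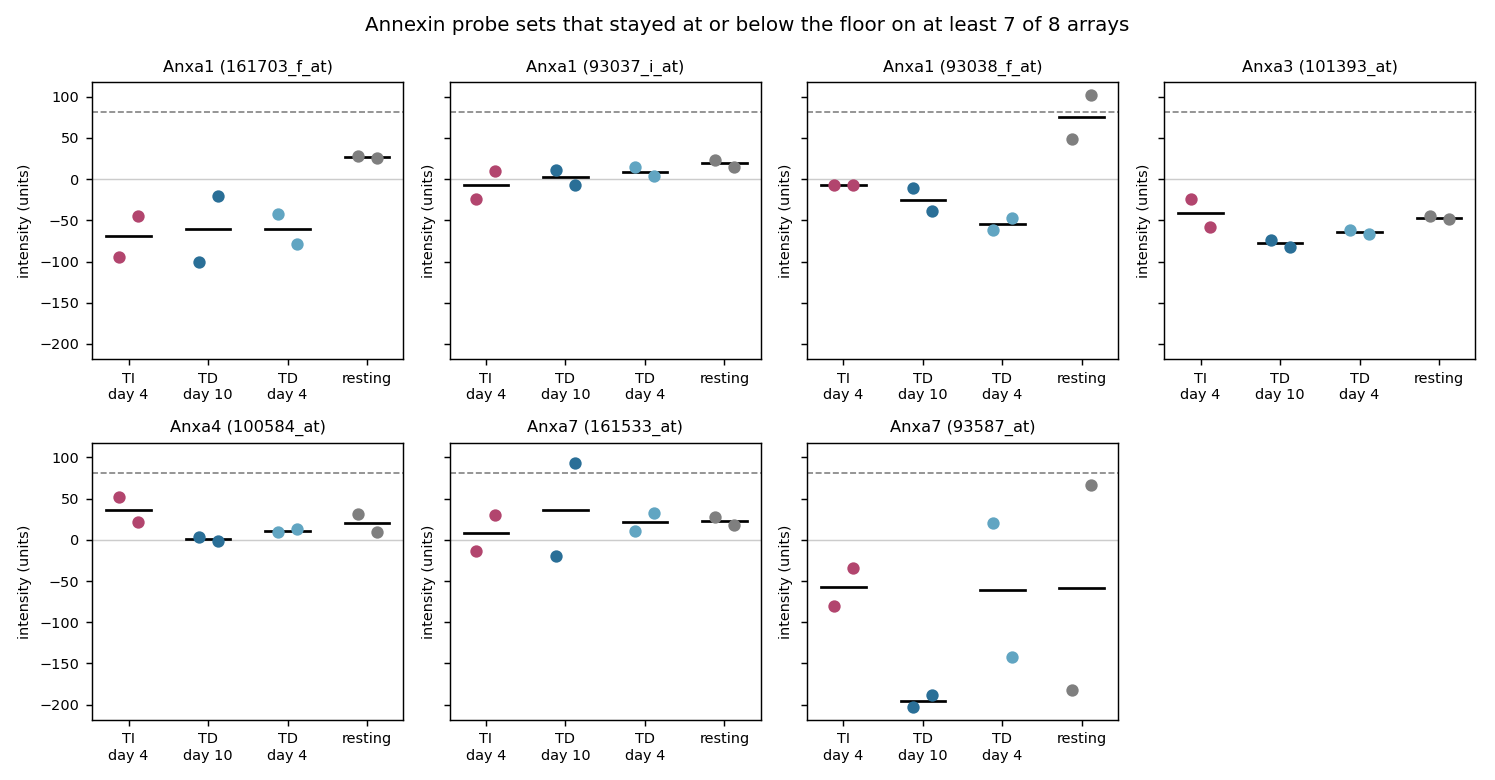
Intensity in units as deposited (y axis) on each array for the 7 member probe sets that were not tested, by group (x axis), with a bar at each group mean and a dashed line at the floor of 81 units. Of the values shown, 2 lie above the floor, at 102 units for Anxa1 and 93 units for Anxa7.

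Counted together, 0 of the 6 tested member probe sets passed in TI day 4 against TD day 10, where limma called 2.4% of all probe sets tested. In TI day 4 against TD day 4 it was also 0 of 6, with 1.45% of all called, and in TD day 10 against TD day 4 it was 0 of 6, with 0% called. At an unadjusted limma p under 0.05 the member counts were 3, 2 and 1, where 17.2%, 14.4% and 5.14% of all probe sets lay under it. Arrays did not overlap for 4, 3 and 1 of the 6, beside 48.9%, 45% and 36.2% of all. In TI day 4 against the mean of TD, 0 of 6 were called, beside 3.63% of all, and 3 lay under an unadjusted p of 0.05, beside 18.1%. The median log2 difference of the members was 0.33 for TI day 4 minus TD day 10, where that of all tested probe sets was -0.08. It was 0.15 for TI day 4 minus TD day 4, against -0.01 for all, and -0.17 for TD day 10 minus TD day 4, against 0.02 for all.

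**Figure D3:**
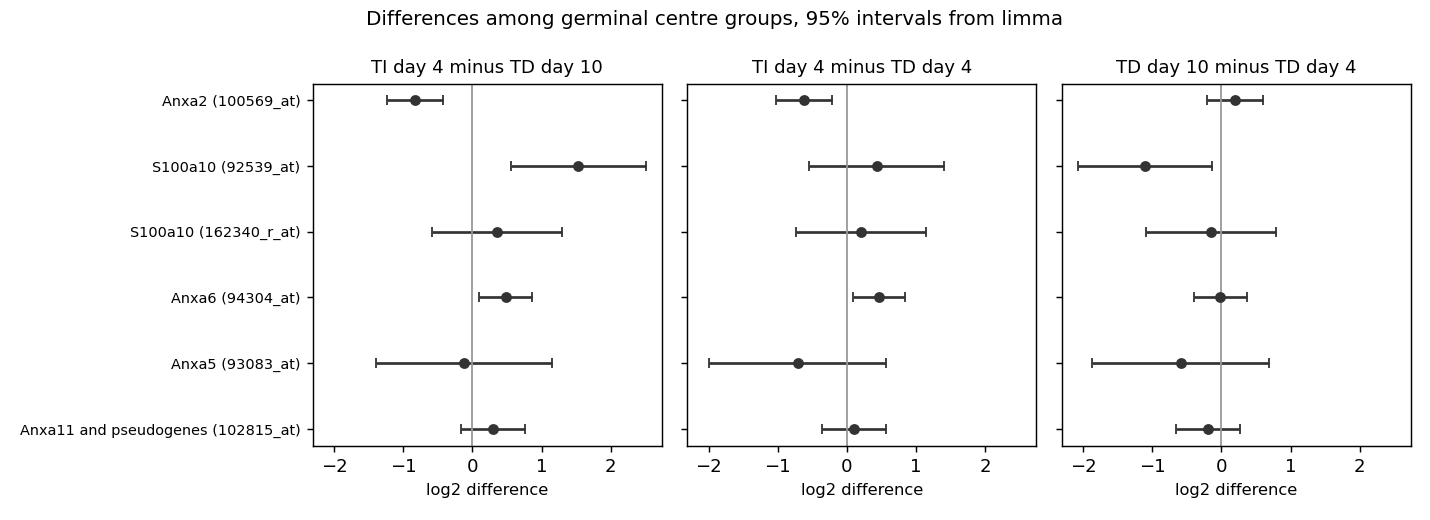
Log2 differences (x axis) with 95% intervals for the 6 tested probe sets (y axis) in the 3 comparisons among germinal centre groups. Anxa2 lies below 0 in TI day 4 minus either TD group, at -0.83 and -0.63, and Anxa6 above 0, at 0.48 and 0.46, with none passing after adjustment.

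Against resting cells, the contrast by which the family was chosen, the call of Anxa2 was fixed by that choice, and the counts are no test of the members. The same threshold was met by 3 of the 6 for the germinal centre mean, where 13.2% of all probe sets met it. Of the 3, Anxa2 was higher, beside 7.73% of all, and S100a10 _at and Anxa6 were lower, beside 5.5%. It was met by 2 in TI day 4 (9.4% of all), 3 in TD day 10 (10.9%) and 3 in TD day 4 (9.42%). S100a10 _at did not meet it for the mean of the groups when resting replicate 2 was left out, which gave 2 of 6. In TD day 4 the count was 1 without TD day 4 replicate 1. In TI day 4 it was 1 without either TI day 4, either TD day 10 or either resting array. The 3 comparisons of single groups share the 2 resting arrays.

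Some markers of other cells also differed between these groups, and in the sums below a value under 0 counts as 0. In the neutrophil list, whose cells carry S100 proteins and Anxa3, 10 genes summed to 1986 to 3105 units in TI day 4 arrays, 2203 to 2676 in TD day 10 and 1953 to 2068 in TD day 4 arrays, and 6764 to 7167 in resting arrays. Of its 9 tested genes, 3 were called lower in the germinal centre mean, S100a8, S100a9 and Camp, beside 5.5% of all probe sets called lower. Ltf was lower on every germinal centre array than on both resting arrays, without a call. Elane, Lcn2, Ly6g and Prtn3 overlapped between germinal centre and resting arrays. Mpo went the other way, at 123 to 182 units in germinal centre arrays and 114 and 119 in resting arrays. Ngp, a granule protein gene, was below 0 on all 8 arrays. The 7 red cell genes summed to 2408 to 2884 units in TI day 4, 989 to 1352 in TD day 10 and 808 to 1169 in TD day 4 arrays, and 23130 to 25570 in resting arrays. Hba-a1, at 15550 and 13751 units, and Hbb-b2, at 8744 and 7985, gave most of the resting sums. Slc4a1 went the other way in TI day 4, at 1700 and 2317 units, against 724 and 707 in resting arrays. Of 5 tested red cell genes, TI day 4 against resting had 1 called higher and 3 lower. Of all probe sets, 5.42% and 3.98% were. The 9 T cell genes summed to 719 to 799 units in TI day 4, 786 to 916 in TD day 10 and 789 to 830 in TD day 4 arrays, and 530 to 964 in resting arrays. Of these 9, 6 in TI day 4 and resting and 7 in both TD groups were at or below the floor on both arrays. Cd4 and Zap70 gave most of the T cell sums, and Zap70 read 103 and 481 units in resting arrays. The part of these cells in the lower S100a10 and Anxa6 signals of germinal centre arrays was not tested.

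The TI day 4 arrays, which were lower for Anxa2 and higher for Anxa6 than the TD arrays, also had the highest plasma cell and macrophage sums. The 6 plasma cell genes summed to 10289 to 13728 units in TI day 4, 2844 to 3584 in TD day 10 and 3502 to 4167 in TD day 4 arrays, and 2135 to 2255 in resting arrays. Jchain gave 7347 and 9356 units of the TI day 4 sums. Of 4 tested plasma cell genes, 2 were called higher in TI day 4 than in TD day 10, beside 1.2% of all probe sets. Irf4 averaged 320.5 units in TI day 4 and 401.5 in resting arrays. Prdm1 and Sdc1 each exceeded the floor on only 1 array. The 13 macrophage and monocyte genes summed to 6292 to 7271 units in TI day 4, 2292 to 2884 in TD day 10 and 3074 to 3199 in TD day 4 arrays, and 4237 to 4257 in resting arrays. Of the TI day 4 macrophage sum, Apoe, an apolipoprotein, gave 3371 to 4213 units. It was the 1 of 10 tested macrophage genes called in TI day 4 against TD day 10 or against the mean of TD. Of all probe sets, 2.4% and 3.63% were called there. C1qa and C1qc, which encode complement chains, were called lower in TI day 4 than in resting cells, and 1 of the 10 was called higher. Of all probe sets, 3.98% and 5.42% were. The part of plasma cells and macrophages in the member differences was not tested. With the Gapdh ratio as a covariate, Anxa2 in TI day 4 minus TD day 10 was -0.87 on the log2 scale (limma adjusted p = 0.335).

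**Figure D4:**
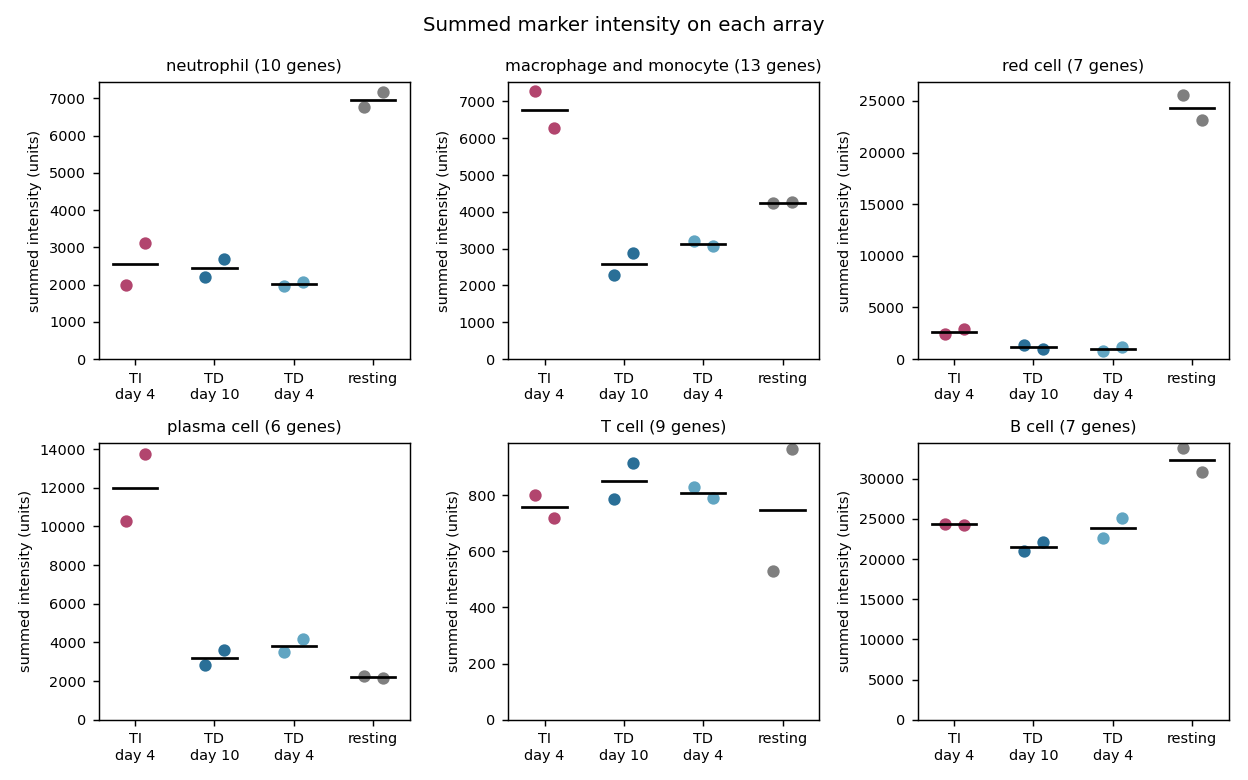
Summed intensity in units (y axis) of the markers of 6 cell types on each array, by group (x axis), with a bar at each group mean. Neutrophil and red cell sums are highest in resting arrays, at 6764 to 7167 and 23130 to 25570 units. The red cell sum there comes mostly from Hba-a1 and Hbb-b2. Plasma cell and macrophage sums are highest in TI day 4 arrays, mostly from Jchain and Apoe.

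Genes that act with annexins were followed in 5 lists. Of 4 further annexins 2 were on the array and 1, Anxa8, was tested. Anxa8 gave 113 and 51 units in TI day 4 arrays, 40 and -21 in TD day 10, 90 and 106 in TD day 4 arrays, and 29 and 2 in resting arrays, with no limma call in any comparison. Among 9 tested S100 genes other than S100a10, 2 were called lower in the germinal centre mean against resting and none higher, beside 5.5% of all probe sets lower and 7.73% higher. The list's median log2 difference was 0.07, with 0.00 for all probe sets.

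Both of those genes encode the subunits of calprotectin, the calcium-binding complex of neutrophils. S100a8 read 384 and 938 units in TI day 4, 514 and 468 in TD day 10, 169 and 326 in TD day 4 arrays, and 2833 and 3279 in resting arrays. It was 7.43-fold lower in the germinal centre mean (limma adjusted p = 0.00648), and S100a9 was at least 8.29-fold lower (limma adjusted p = 0.0199), with all germinal centre arrays below the resting arrays for each gene. Among the germinal centre groups 0 of the 9 S100 genes passed, in comparisons where at most 2.4% of all probe sets did. In TI day 4 against TD day 4, 2 of the 9 had an unadjusted limma p under 0.05, beside 14.4% of all.

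Of 13 tested partners and receptors of annexins, 1 passed among the germinal centre groups, in TI day 4 against TD day 10, where 2.4% of all probe sets did. Ctsb, the lysosomal protease cathepsin B, which binds the Anxa2 complex at the surface of tumour cells, gave 2406 and 2239 units in TI day 4, 873 and 907 in TD day 10, 1406 and 1449 in TD day 4 arrays, and 1831 and 2041 in resting arrays. It was 2.61-fold higher in TI day 4 than in TD day 10 (limma adjusted p = 0.0123), beside the macrophage sums above. The list's median in that comparison was -0.20 and that of all probe sets -0.08. None of the 4 tested genes of phosphatidylserine exposure and binding passed in limma. Among them, only Atp8a1 had an unadjusted limma p under 0.05 in TI day 4 against TD day 10 and against TD day 4. Of all probe sets, 17.2% and 14.4% lay under it there. In the germinal centre mean against resting only Mfge8 did, beside 25.8% of all probe sets.

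Of 17 tested genes of the cortical actin layer, Pfn1, encoding the actin monomer-binding profilin, passed among the germinal centre groups, in TI day 4 against TD day 10 and against TD day 4, where 2.4% and 1.45% of all probe sets did. It read 1139 and 1343 units in TI day 4, 499 and 442 in TD day 10, 471 and 494 in TD day 4 arrays, and 458 and 529 in resting arrays. It was 2.63-fold higher in TI day 4 than in TD day 10 (limma adjusted p = 0.0178) and 2.56-fold higher than in TD day 4 (limma adjusted p = 0.0281). In the germinal centre mean against resting, 3 of the 17 were called lower and none higher, beside 5.5% and 7.73% of all probe sets. The list median was 0.05, with 0.00 for all. An unadjusted limma p under 0.05 was reached by 8 of the 17, beside 25.8% of all. Besides the 3, these were Actg1, Cfl1, Cnn2, Pfn1 and Gsn, all higher in the germinal centre mean.

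The 3 called lower were Capg, an actin-capping protein, and Ezr and Rdx, which encode the membrane-to-actin linkers ezrin and radixin. Capg gave 519 and 604 units in TI day 4, 400 and 446 in TD day 10, 423 and 567 in TD day 4 arrays, and 1465 and 1531 in resting arrays. It was 3.07-fold lower in the germinal centre mean (limma adjusted p = 0.00245). Ezr was 1.48-fold lower (limma adjusted p = 0.0437), and Rdx, named after its value was seen, was at least 1.72-fold lower (limma adjusted p = 0.0462).

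**Figure D5:**
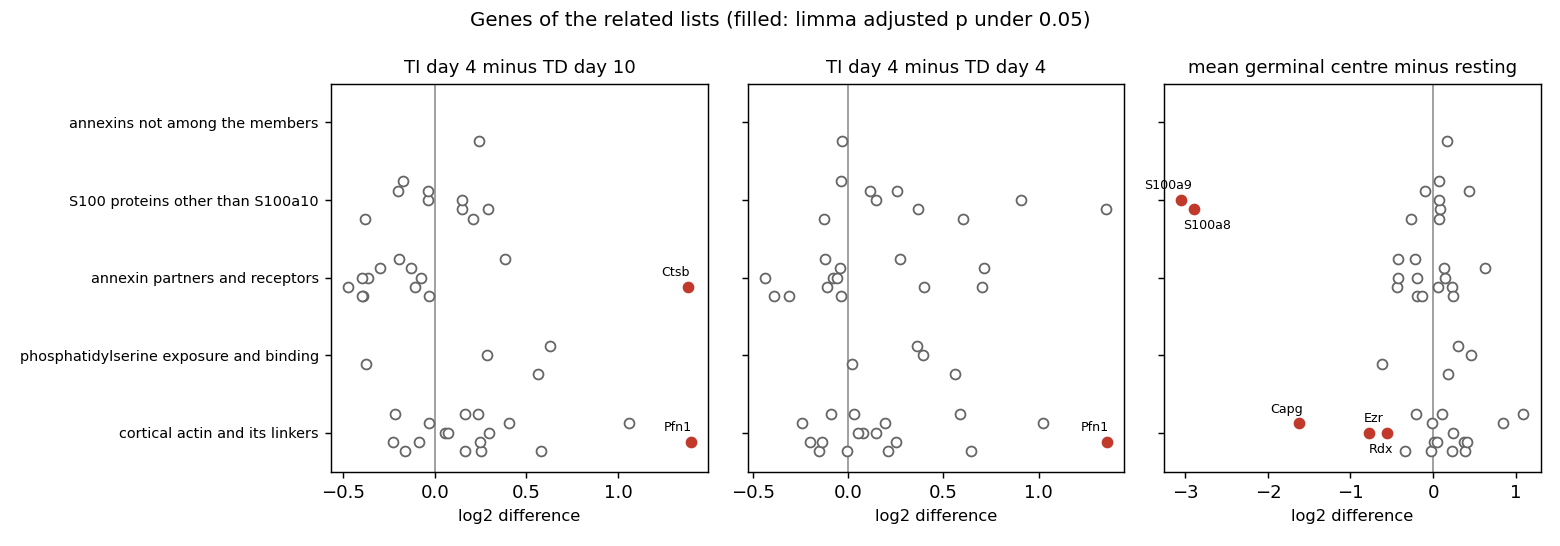
Log2 differences (x axis) of the tested genes of 5 related lists (y axis) for TI day 4 minus TD day 10, TI day 4 minus TD day 4 and the germinal centre mean minus resting; filled points passed limma at an adjusted p under 0.05. Ctsb and Pfn1 are higher in TI day 4, and S100a8, S100a9, Capg, Ezr and Rdx are lower in germinal centre cells. The vertical spread within a list has no meaning.

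The genes nearest to Anxa2 in pattern over the 8 arrays were Hmgb2, Cks2, Pclaf, Cks1b and Stmn1. All 5 were far dimmer in resting arrays, with means there of -26 to 182 units. That is the contrast by which Anxa2 was chosen, so their nearness is no test. Stmn1 alone of them averaged more in TI day 4 (2698 units) than in TD day 10 (2297) and TD day 4 (2343.5), opposite to Anxa2. Likeness was the root mean square of the log2 difference after each probe set was centred on its own mean, and it was 0.32 for Hmgb2, a chromatin protein, 0.35 for Cks2 and 0.41 for Cks1b, subunits of cyclin-dependent kinases, 0.39 for Pclaf, a partner of the replication clamp, and 0.49 for Stmn1, which destabilises microtubules. The median over the tested probe sets with a single symbol, members left out, was 1.89. For S100a10 by the _at set the nearest were Map3k1 at 0.29, a kinase of stress signalling, and Gm2a at 0.38, a lysosomal lipid-binding protein. Next came D17H6S56E-5 at 0.42, Notch2 at 0.43, a receptor needed for marginal zone B cells, and Arhgef3 at 0.46. The median over the same probe sets was 1.32. These values describe 8 arrays that share the same groups.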

How the data were processed

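Total RNA of sorted B cells was extracted with RNAzol, biotin-labelled and hybridised to Affymetrix arrays, per the labels' protocols. The deposited table holds linear intensities, some negative; what software and scaling the authors used is not given in the sources used here. Each array's mean after trimming was 199.9 to 200.2 units. They were used without further normalization, floored at the 50th percentile (81) and taken to log2. Probe sets above it on at least 2 arrays were tested (7253, without 66 controls). limma 3.58.1 under R 4.3.3 fitted 1 model of 4 groups to all 8 arrays (4 residual and 2.20 prior degrees of freedom), with two-sided tests and Benjamini-Hochberg adjustment at 0.05 over all tested probe sets; intervals are unadjusted and folds come from differences of mean log2 values. A fit on simulated data was checked, with less spread than in these data and no floor, so it does not measure power here. Precision is limited by how few arrays there were.

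The annotation gives 1 symbol for 10855 probe sets, several for 396 and no symbol for 1237. Members, lists and tests were chosen with earlier results of these data known. All members are named, with the 2 called genes of smallest p per direction in each list and comparison among germinal centre groups or of their mean with resting, and the 5 genes most like Anxa2 and S100a10. A list gene is represented by its brightest probe set. Same-numbered arrays of different groups deviated with correlations of -0.217 to 0.121. With 2 arrays per group these cannot show whether same-numbered pools were handled together, and the main model did not pair them. Alternatives were other floors, filters, normalizations, priors, array weights, a replicate block, a Gapdh covariate and each array left out. Promoters come from RefSeq (GRCm38.p6).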

Additional observations from a re-analysis of the deposited data

How the results depend on the processing

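The count of member probe sets called stayed at 0 under all 21 alternatives in TI day 4 against TD day 4 and in TD day 10 against TD day 4. In TI day 4 against TD day 10 it became 1, Anxa2, under a 60th-percentile floor, quantile normalization and a trended robust prior (limma adjusted p of 0.0428, 0.0483 and 0.0465), and was 0 under the other 17, including each array left out (0 to 0). Against the mean of TD it became 1 under those 3 settings and array weights, and was 0 to 0 with an array left out. Against resting, the count in TI day 4 became 1, in place of 2, under a 40th-percentile floor, no filter, only the arrays compared, array weights and the Gapdh covariate, 3 under a 60th-percentile floor, and 1 to 2 with an array left out. In TD day 4 it was 1, in place of 3, on only the arrays compared, 2 under no filter, array weights and the Gapdh covariate, and 1 to 3 with an array left out. In TD day 10 it was 2 on only the arrays compared, 2 to 3 with an array left out and 0 under a crossed replicate block, added after seeing the data, which called 0 of all probe sets. For the germinal centre mean it was 2 to 3 with an array left out and 3 under every other alternative run. The replicate block gave 0, 0 and 0 among germinal centre groups and 3 for their mean against resting, and it changed no member count. The causes were not tested. Over all alternatives the calls among all probe sets ranged from 0 to 292 in TI day 4 against TD day 10 (174 as reported), 0 to 261 in TI day 4 against TD day 4 (105), 0 to 14 in TD day 10 against TD day 4 (0) and 521 to 987 for the mean against resting (960). For the mean against resting, the fit on only the arrays compared is the reported one and was not run again. A lone array left in a group is assumed to vary like the other groups.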

Other observations

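A probe set annotated to S100a11, the S100 partner of Anxa1, together with its pseudogene and Gm12854, is in no list because it names several genes, and it was singled out after its values were seen. It gave 514 and 625 units in TI day 4, 76 and 95 in TD day 10, 226 and 434 in TD day 4 arrays, and 1059 and 1190 in resting arrays. The groups did not overlap, and their order was that of S100a10 by the _at set. It was at least 6.46-fold higher in TI day 4 than in TD day 10 (limma adjusted p = 0.0165) and 1.81-fold higher than in TD day 4 (limma adjusted p = 0.298). TD day 10 was at least 3.57-fold lower than TD day 4 (limma adjusted p = 0.352). The germinal centre mean minus resting was -2.17 on the floored log2 scale (SE 0.26, limma adjusted p = 0.00447), with intensities averaging 328 units over the germinal centre arrays and 1124.5 in resting arrays. Signal of S100a11 and of its copies cannot be told apart.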
